A study of Mus musculus with 6 samples.

Results

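The genes described here are 9 markers of the resting (homeostatic) state of microglia, the resident macrophages of the brain and retina. They are P2ry12, Tmem119, Sall1, Cx3cr1, Csf1r, Siglech, Fcrls, Gpr34 and Olfml3. They were taken by name from the known markers of microglia, with no threshold on a measured value, and make up 9 of the 32371 genes in the count table. The list was chosen with earlier results of these data known. All 9 were found by symbol, and all 9 were among the 18138 genes that passed the filter on low counts.

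The libraries came from the retinas of adult C57BL/6J mice of both sexes that received AAV2 into the vitreous and an optic nerve crush (ONC) 2 weeks later. Retinas were taken 3 days after ONC, and dissociated cells labelled for CD90.2, the product of Thy1, were sorted to enrich retinal ganglion cells (RGCs) for RNA-Seq. The control group of 3 libraries came from mice given AAV2-GFP, and the other 3 libraries from mice given AAV2-Ezh2-Y726D, which encodes an Ezh2 without methyltransferase activity. Both groups thus carried an AAV2, the same genetic background and the same injury, and no uninjured or uninjected group was compared here. The promoter that drove the transgenes and the number of mice behind a library were not given in the sources used here, so P values measure the spread between these libraries, which may be technical.

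Microglia depend on Csf1r, the receptor tyrosine kinase for the ligands Csf1 and Il34, and they sense neurons through Cx3cr1, the receptor for the neuronal chemokine Cx3cl1. In the healthy retina, they express a set of surface receptors and the transcription factor Sall1 that is maintained by TGF-β signalling and that usually falls when the cells become reactive after injury. Csf1r and Cx3cr1 are shared with monocytes and macrophages, whereas the other members are, among myeloid cells, more restricted to microglia. Which cells supplied the RNA of each member in these libraries was not tested. CD90.2 is not a marker of microglia, and how their RNA entered the sorted libraries was not tested. In such bulk samples, fewer cells of a type and less RNA per cell cannot be told apart.

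Total counts per library ranged from 9333244 to 23782520. The share of the rRNA gene CT010467.1 was between 2.55 and 52.2% and was highest in GFP replicates 2 and 3, which left between 4460732 and 22024582 counts on the other genes. Ezh2, the overexpressed gene, was at 22.7, 23.9 and 26.4 CPM (counts scaled to a library of fixed size) with GFP and at 65.2, 65.6 and 65.2 CPM with Ezh2-Y726D. CPM was computed from libraries scaled by the trimmed mean of M values (TMM), and log2 fold changes are of Ezh2-Y726D over GFP throughout. The labelled cell type was not the only one present. A list of 11 RGC markers summed to between 469 and 507 CPM, a list of 5 rod markers to between 5289 and 6000 CPM, and a list of 5 Müller glia markers to between 4400 and 4882 CPM over the 6 libraries.

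The members did not move as one group. With Ezh2-Y726D, Csf1r, Cx3cr1 and Fcrls were lower, Sall1 and P2ry12 were higher, and Tmem119, Siglech, Gpr34 and Olfml3 did not pass the test. At an adjusted P under 0.05 by edgeR's quasi-likelihood test, 3 of the 9 members were thus lower and 2 were higher, beside 13.6% of all genes tested that were lower, 13.9% that were higher and 27.5% in either direction. With a fold change over 1.5 in addition, the threshold of a differentially expressed gene (DEG), 1 member was lower (Fcrls) and 1 was higher (Sall1), beside 5.5% of all genes lower and 2.52% higher. Without GFP replicate 1, 2 members were lower and 0 higher at adjusted P, and 0 were DEGs in either direction. The fitted fold change of Sall1 was 1.53, just over that threshold. Its mean levels of 4.86 CPM with GFP and 6.81 CPM with Ezh2-Y726D differed by less than that threshold. The median log2 fold change of the 9 was -0.14, and that of all genes tested was 0.00. With library totals that were not scaled, where the median of all genes was 0.49, no member was called, and Csf1r and Cx3cr1 were at 0.12 and 0.11. The groups did not overlap for 6 members, namely the 5 called ones and Olfml3, against 38.6% of all genes. With 3 libraries against 3, no 2-sided exact permutation test of a single gene can fall below 0.1, so the calls rest on the fit across all genes.

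**Figure D1:**
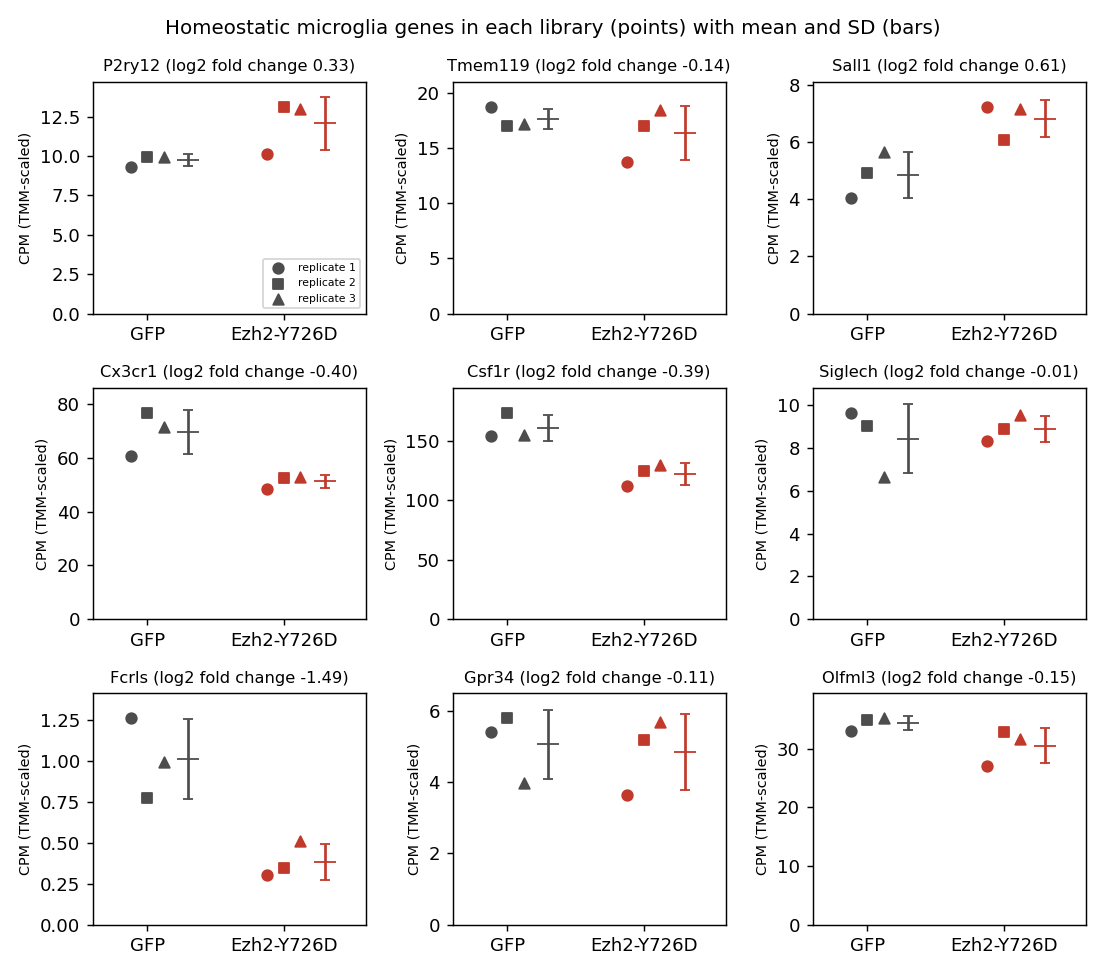
Each panel plots 1 member, with the CPM of each library on the y axis (from 0), the 3 GFP libraries in grey, the 3 Ezh2-Y726D libraries in red, the marker shape giving the replicate number, and bars for the mean and SD. The groups are apart for P2ry12, Sall1, Cx3cr1, Csf1r, Fcrls and Olfml3, and they overlap for Tmem119, Siglech and Gpr34.

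Of the 2 receptors that microglia share with other myeloid cells, Csf1r lies on chr18:61100598-61132149 (plus strand; GRCm38, GENCODE vM21, as for all members). Its level was 154, 174 and 155 CPM with GFP against 112, 125 and 130 CPM with Ezh2-Y726D. Every Ezh2-Y726D library was thus below every GFP library. The log2 fold change was -0.39 (SE 0.051, adjusted P = 8.25e-07, edgeR). Of its exonic bases, 15.1% are shared with Hmgxb3 on the opposite strand, whose own log2 fold change was -0.05 (adjusted P = 0.57, edgeR). Cx3cr1 (chr9:119901616-120069879, minus strand) was at 60.8, 76.9 and 71.7 CPM with GFP and at 48.6, 52.6 and 53.0 CPM with Ezh2-Y726D. Its groups did not overlap either, and its log2 fold change was -0.40 (SE 0.065, adjusted P = 1.83e-05, edgeR). Both falls were smaller than the fold change of a DEG.

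Fcrls, an Fc receptor-like scavenger protein of microglia (chr3:87250758-87263738, minus strand), had the largest fold change of the members and the lowest level. It was at 1.26, 0.774 and 0.995 CPM with GFP, which stand for 36, 6 and 6 counts, and at 0.301, 0.343 and 0.508 CPM with Ezh2-Y726D, which stand for 8, 7 and 15 counts. The Ezh2-Y726D libraries all lay below the GFP libraries. The log2 fold change was -1.49 (SE 0.35, adjusted P = 0.0017, edgeR). Without GFP replicate 1, which holds most of the GFP counts of this gene, it was -1.14 (adjusted P = 0.151, edgeR).

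Sall1 (chr8:89027235-89044162, minus strand), the zinc finger transcription factor that maintains microglial identity, moved the other way. It was at 4.03, 4.90 and 5.64 CPM with GFP and at 7.22, 6.08 and 7.15 CPM with Ezh2-Y726D, from counts of 115, 38 and 34 and of 192, 124 and 211. The lowest Ezh2-Y726D library was above the highest GFP library. The log2 fold change was 0.61 (SE 0.14, adjusted P = 0.00137, edgeR). Without GFP replicate 1, the library with the lowest Sall1 level, it was 0.39 (adjusted P = 0.143, edgeR). Sall1 was still called but fell short of the fold change of a DEG with DESeq2 (0.56, adjusted P = 0.0221) and without Ezh2-Y726D replicate 1 or 3 (0.57 each, adjusted P = 0.00557 and 0.00917, edgeR).

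The bases before the Sall1 start site are shown because Sall1 is the only member called a DEG that was higher, and those before Olfml3 because these are the only members in the RefSeq promoter table (GRCm38.p6) whose 250 bases before the outermost start hold no annotated exon. They lie at chr8:89044163-89044412 and chr3:103738002-103738251, are written 5′ to 3′ on the strand of the gene (minus for both), and end at the base before the start. Capitals mark GGAA or its reverse complement TTCC, the core letters bound by transcription factors of the ETS family, to which the myeloid factor Spi1 (PU.1) belongs.
Sall1: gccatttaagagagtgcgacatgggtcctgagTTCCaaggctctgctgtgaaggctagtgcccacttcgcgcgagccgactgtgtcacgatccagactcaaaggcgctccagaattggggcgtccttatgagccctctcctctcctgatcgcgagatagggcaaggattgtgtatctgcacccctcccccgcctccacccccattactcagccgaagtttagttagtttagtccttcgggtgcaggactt
Olfml3: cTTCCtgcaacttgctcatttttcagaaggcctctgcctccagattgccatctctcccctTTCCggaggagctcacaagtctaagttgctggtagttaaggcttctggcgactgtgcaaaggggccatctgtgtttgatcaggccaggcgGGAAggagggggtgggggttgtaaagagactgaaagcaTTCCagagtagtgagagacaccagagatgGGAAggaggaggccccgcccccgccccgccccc
Sall1 held 1 such match and Olfml3 held 5. These letters occur on either strand in 93.4% of the 32851 promoters of the table over the same 250 bases, so their presence sets neither gene apart. The longer GAGGAA, which contains GGAA and is part of the Spi1 motif, occurs in 23.3% of all promoters and in the window of 1 of the 6 members in the table (Fcrls). Tmem119, Csf1r and Gpr34 had no entry.

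Among the surface proteins more restricted to microglia, P2ry12, the ADP receptor that guides microglial processes towards injury (chr3:59216272-59262871, minus strand), was the only one that was higher. It was at 9.30, 9.93 and 9.95 CPM with GFP and at 10.1, 13.1 and 13 CPM with Ezh2-Y726D. The groups did not overlap, but Ezh2-Y726D replicate 1 lay close to the GFP libraries. The log2 fold change was 0.33 (SE 0.11, adjusted P = 0.0243, edgeR), below the threshold of a DEG. The call was lost without GFP replicate 1 (0.27, adjusted P = 0.22), without Ezh2-Y726D replicate 2 (0.28, adjusted P = 0.11) and without Ezh2-Y726D replicate 3 (0.26, adjusted P = 0.134), and also with DESeq2 (0.32, adjusted P = 0.114) and with the replicate number as a block (0.26, adjusted P = 0.0557). P2ry12 shares 0.353% of its exonic bases with Med12l on the opposite strand, which had a log2 fold change of 0.29 (adjusted P = 0.000363, edgeR). Whether counting used the strand was not given in the sources used here, and the part of Med12l reads in the P2ry12 counts was not tested.

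Tmem119, Siglech and Gpr34 did not pass the test. Tmem119, a membrane protein used to tell microglia from blood macrophages (chr5:113793729-113800516, minus strand), was at 18.7, 17.0 and 17.2 CPM with GFP and at 13.7, 17.0 and 18.4 CPM with Ezh2-Y726D, with a log2 fold change of -0.14 (SE 0.094, adjusted P = 0.31, edgeR). Ezh2-Y726D replicate 1 lay below the GFP libraries, and replicates 2 and 3 lay close to or within their range. Leaving out 1 library moved the value from -0.24 without Ezh2-Y726D replicate 3 to -0.02 without Ezh2-Y726D replicate 1. Siglech, a sialic acid-binding lectin that signals through Tyrobp (chr7:55768178-55778925, plus strand), was at 9.65, 9.03 and 6.63 CPM with GFP and at 8.31, 8.87 and 9.52 CPM with Ezh2-Y726D. Its log2 fold change was -0.01 (SE 0.11, adjusted P = 0.977, edgeR). Gpr34, a receptor for lysophosphatidylserine (chrX:13632089-13640858, plus strand), was at 5.40, 5.80 and 3.98 CPM and at 3.65, 5.19 and 5.69 CPM, with a log2 fold change of -0.11 (SE 0.16, adjusted P = 0.684, edgeR). For Siglech and Gpr34, the lowest GFP library was replicate 3, the shallowest, with 40 and 24 counts.

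Olfml3, a secreted olfactomedin-like protein (chr3:103722222-103738001, minus strand), was at 33.0, 34.8 and 35.2 CPM with GFP and at 27.1, 32.9 and 31.6 CPM with Ezh2-Y726D. The Ezh2-Y726D libraries were just below the GFP libraries without overlap. The log2 fold change was -0.15 (SE 0.070, adjusted P = 0.104, edgeR), and over the fits that left out 1 library it ran from -0.21 without Ezh2-Y726D replicate 2 (adjusted P = 0.0489) to -0.07 without Ezh2-Y726D replicate 1 (adjusted P = 0.48, edgeR). With the replicate number as a block, it was -0.19 (adjusted P = 0.0179, edgeR).

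Divided by exonic length, the level of the members followed nearly the same order in both groups. In GFP, Csf1r was highest with 27.9 ± 1.97 CPM per kb (SD, n = 3), followed by Cx3cr1 with 15.5 ± 1.83, Tmem119 with 7.63 ± 0.392, Olfml3 with 5.57 ± 0.188 and P2ry12 with 3.82 ± 0.146 CPM per kb. Siglech with 2.49 ± 0.470 and Gpr34 with 2.42 ± 0.458 CPM per kb overlapped and had no order. Sall1 with 0.923 ± 0.153 and Fcrls with 0.433 ± 0.105 CPM per kb were lowest. In Ezh2-Y726D, the range was from 21.2 ± 1.66 CPM per kb for Csf1r to 0.165 ± 0.047 CPM per kb for Fcrls. There, P2ry12 with 4.74 ± 0.681 overlapped with Olfml3 with 4.96 ± 0.492 CPM per kb, as Siglech again did with Gpr34. The other neighbours in the order did not overlap in either group.

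**Figure D2:**
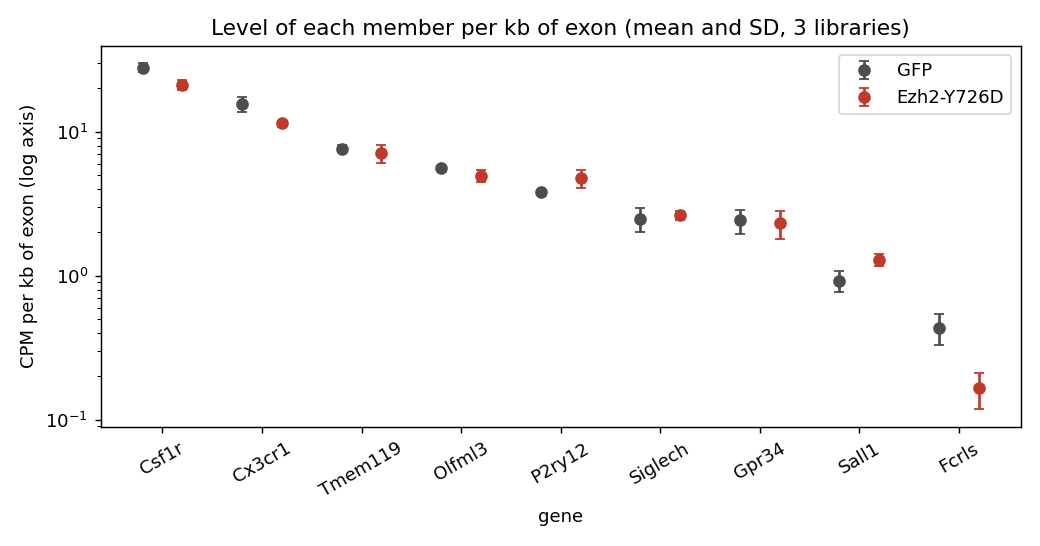
The y axis (log scale) gives the level of each member as CPM per kb of exon, in the order of the GFP group, with points for the mean and bars for the SD of 3 libraries in GFP (grey) and Ezh2-Y726D (red). The members run from 27.9 for Csf1r to 0.433 for Fcrls in GFP, and the distance between the groups is widest for Fcrls.

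Within the Ezh2-Y726D group, replicate 1 stood low. It held the lowest level in the group for 8 of the 9 members, all but Sall1, and the summed CPM of the 9 was 231 there against 262 and 269 in replicates 2 and 3. In GFP, the sums were 296, 333 and 306 CPM, with 3 members at their highest in each of the 3 libraries and 5, 2 and 2 at their lowest, so GFP replicate 1 also held the lowest sum and the most low levels of its group. The sums were dominated by Csf1r and Cx3cr1. The myeloid reference genes described next were also lowest in Ezh2-Y726D replicate 1, and 10 of 12 immediate early and heat shock genes that respond to tissue dissociation were at their highest of all 6 libraries in it. The 12 had a sum of 1161 CPM there against 833 and 872 CPM in replicates 2 and 3 and between 772 and 802 CPM in GFP. The part of dissociation in the levels of the members was not tested. Without this library, Csf1r, Cx3cr1 and Fcrls were still called lower, and P2ry12 and Sall1 were still called higher at adjusted P, but no member was then a higher DEG.

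To place the members among other genes of myeloid cells, a list of 12 reference genes expressed by microglia and macrophages alike was used. These genes were lower with Ezh2-Y726D, with 11 of 12 called lower, none higher and a median log2 fold change of -0.86. Their summed CPM was between 1461 and 1630 with GFP and between 809 and 962 with Ezh2-Y726D. The largest changes were those of Cd68, a lysosomal glycoprotein, with a log2 fold change of -1.29 (SE 0.064, adjusted P = 1.05e-14), Aif1 (Iba1) with -1.04, Fcer1g with -1.03 and Tyrobp, the adaptor of Siglech and Trem2, with -0.94 (SE 0.064, adjusted P = 4.5e-12, edgeR). Itgam (CD11b) was the 1 gene that did not pass (-0.08, SE 0.12, adjusted P = 0.693, edgeR). Of the 9 members, only Fcrls fell by more than the median of this list.

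**Figure D3:**
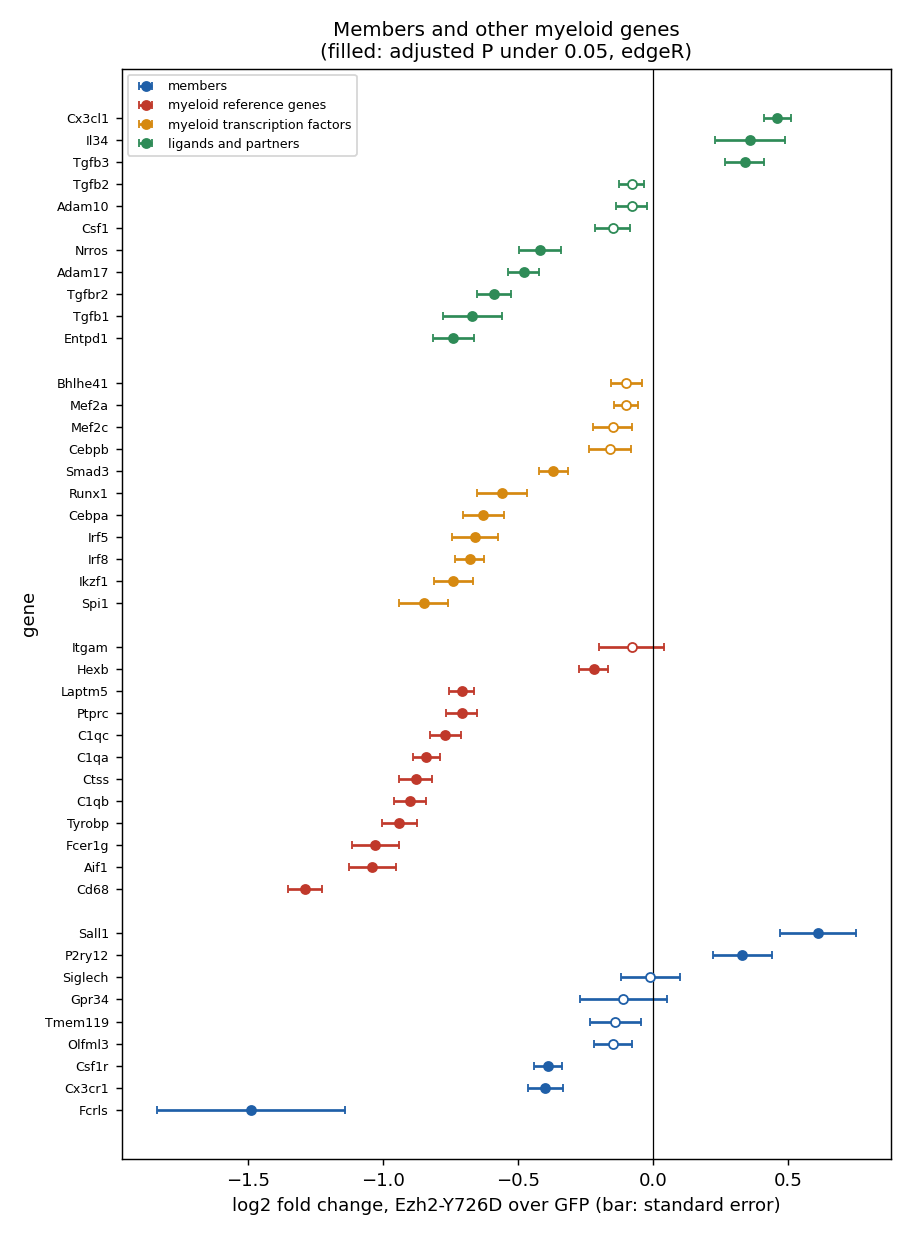
The x axis gives the log2 fold change of Ezh2-Y726D over GFP with its SE for the members (blue), the myeloid reference genes (red), the myeloid transcription factors named in the text (orange) and ligands and partners of the member receptors (green), filled where the adjusted P was under 0.05 (edgeR). The reference genes lie between -1.29 and -0.08, and 8 of the 9 members lie between -0.40 and 0.61, with Fcrls at -1.49.

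Each member was also expressed relative to the mean log2 CPM of the 12 reference genes of the same library, which was 6.34 ± 0.07 (SD, n = 3) in GFP and 5.53 ± 0.13 (SD, n = 3) in Ezh2-Y726D. On this scale, the difference of Ezh2-Y726D minus GFP was 1.30 for Sall1, 1.10 for P2ry12, 0.90 for Siglech, 0.73 for Gpr34, 0.68 for Tmem119, 0.63 for Olfml3, 0.41 for Csf1r and 0.37 for Cx3cr1. In these 8 members, the groups did not overlap. For Fcrls, the difference was -0.60 and the groups overlapped. As the reference genes were themselves lower, 85.2% of all genes were higher without overlap on this scale and 1.1% were lower, so 8 of 9 members is close to what the table as a whole gives. These differences are a description, and no test was run on them.

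**Figure D4:**
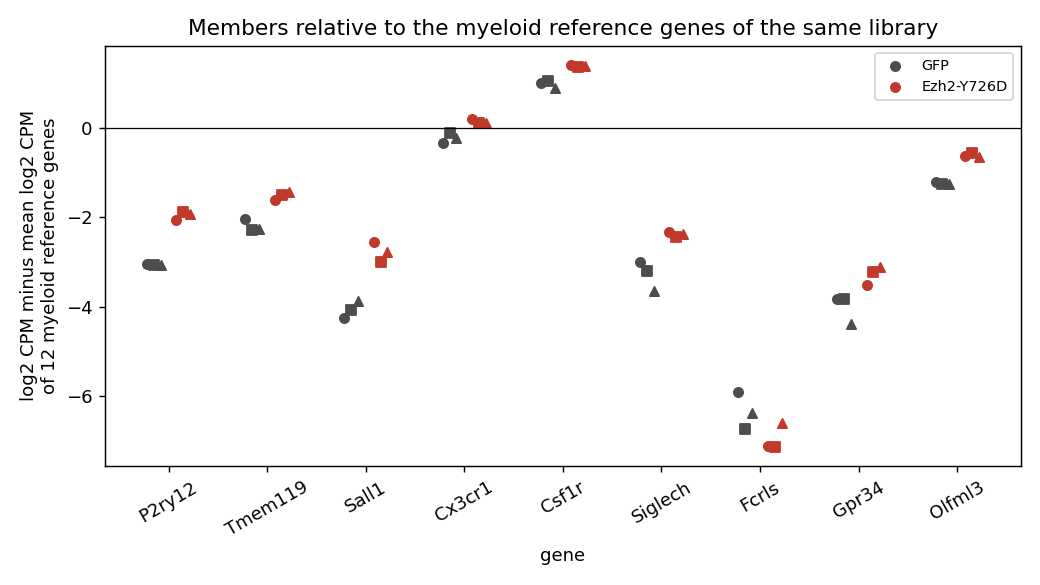
The y axis gives the log2 CPM of each member minus the mean log2 CPM of the 12 myeloid reference genes in the same library, with GFP in grey, Ezh2-Y726D in red and the marker shape giving the replicate number. The red points lie above the grey ones for every member but Fcrls, where they overlap, and Csf1r is the only member above 0 in all 6 libraries.

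A second list held 24 other genes of the microglial program, of which 23 were in the table and tested. With Ezh2-Y726D, 12 were lower and 3 higher, with a median log2 fold change of -0.22. Large changes among those called were a higher level of Slc2a5, the fructose transporter GLUT5, with a log2 fold change of 1.14 (0.623 ± 0.140 CPM in GFP and 1.35 ± 0.231 CPM in Ezh2-Y726D, SD, n = 3; adjusted P = 0.00705, edgeR), and lower levels of the lipid receptor Trem2 (-0.75) and the adaptor Abi3 (-0.74). Sparc (0.40) and Adgrg1 (0.48) were the other genes that were higher, and both are named after their values were seen. In the retina, these are not restricted to microglia. Of those not called, Rnase4 (-0.10, adjusted P = 0.257) and Slco2b1 (0.19, adjusted P = 0.191) had the highest levels. The summed CPM of this list was between 1195 and 1232 in GFP and between 1236 and 1271 in Ezh2-Y726D, in which Sparc alone held 532 ± 1.94 and 702 ± 15.8 CPM (SD, n = 3).

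Of 12 transcription factors of myeloid cells, 8 were lower, none higher, and the median log2 fold change was -0.57. The lower ones included Spi1, the master regulator of the myeloid lineage, with a log2 fold change of -0.85 (SE 0.091, adjusted P = 2.01e-08, edgeR), Ikzf1 with -0.74, Irf8, a factor required for microglial development, with -0.68, Irf5 with -0.66, Cebpa with -0.63, Runx1 with -0.56 and Smad3, which transmits TGF-β signals, with -0.37. Values for Cebpb (-0.16), Mef2c (-0.15), Mef2a (-0.10) and Bhlhe41 (-0.10) did not pass the test. Sall1 was thus higher in the same libraries in which Spi1 went from 17.9 ± 1.82 CPM in GFP to 10 ± 0.632 CPM in Ezh2-Y726D (SD, n = 3).

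The ligands and partners of the member receptors changed in both directions, with 5 of 11 lower, 3 higher and a median log2 fold change of -0.15. Cx3cl1, the ligand of Cx3cr1, was at 64.2 ± 3.48 CPM in GFP and 89.2 ± 3.16 CPM in Ezh2-Y726D (SD, n = 3), a log2 fold change of 0.46 (SE 0.050, adjusted P = 2.44e-08, edgeR). Receptor and ligand thus moved in opposite directions. Of the ligands of Csf1r, Il34 was higher, with a log2 fold change of 0.36 (5 ± 0.497 and 6.64 ± 0.535 CPM, SD, n = 3; adjusted P = 0.0393, edgeR), and Csf1 did not pass the test (-0.15, adjusted P = 0.109, edgeR). In the TGF-β pathway that maintains the homeostatic genes, Tgfb1 (-0.67), its receptor Tgfbr2 (-0.59) and Nrros (-0.42), a protein that tethers TGF-β1 to microglia, were lower, Tgfb3 (0.34) was higher, and Tgfb2 (-0.08) was not called. Entpd1 (CD39), which breaks down the ATP and ADP that P2ry12 senses, had a log2 fold change of -0.74 (adjusted P = 7.74e-09, edgeR), and the protease Adam17, which sheds Cx3cl1, had one of -0.48. Adam10, which also sheds Cx3cl1, was not called (-0.08).

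The tested markers of other immune cells and of reactive phagocytes were mostly lower with Ezh2-Y726D. Of the 9 members, 3 were lower, 2 were higher and 4 were not called. Of 14 genes of monocytes and perivascular macrophages, 11 were tested, 10 were lower, none was higher and the median log2 fold change was -1.57. Their summed CPM was between 696 and 709 in GFP and between 379 and 417 in Ezh2-Y726D, led by Cd74 and Fn1. The perivascular macrophage genes Cd163, Pf4 and Cbr2 were too low to test, each under 1 CPM on average in both groups. Pf4 and Cbr2 averaged 0.798 and 0.742 CPM in GFP against 0.0125 and 0.0941 CPM in Ezh2-Y726D, and Cd163 averaged 0.0117 CPM in GFP and 0.044 CPM in Ezh2-Y726D. Of 17 genes of disease-associated phagocytes, a state that microglia can themselves take on, 14 were lower and 1 higher (Lpl), with a median of -0.71. This list shares Trem2 with the list of the microglial program and Tyrobp with the myeloid reference genes, so it is not separate from them. Of 10 T cell genes, which the sort for CD90.2 would retain, 9 were lower and 1, the sorted marker Thy1 itself, was higher, with sums between 233 and 238 CPM in GFP and between 189 and 202 CPM in Ezh2-Y726D. Without Thy1, the sums of the other 9 were between 128 and 134 CPM in GFP and between 75.5 and 82.9 CPM in Ezh2-Y726D. Of 5 B cell genes, 4 were tested and 2 were lower. Of 7 neutrophil genes, 2 were tested and 1 was lower, with S100a8, S100a9 and Ly6g under 0.1 CPM on average in both groups. The part of these cells in the levels of the members was not tested.

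Among markers of the cells of the retina itself, all 6 amacrine cell markers were higher (median 0.65) and all 5 cone markers lower (median -0.61), beside 27.5% of all genes called in either direction. Of the other lists, 2 of 11 RGC markers were higher and 1 lower (median -0.07), 1 of 5 bipolar cell markers was higher and 4 lower (median -0.38), 2 of 5 rod markers were higher (median 0.11), 1 of 5 Müller glia markers was higher and 1 lower (median -0.06), and 1 of 2 astrocyte markers tested, 1 of 5 endothelial markers and 4 of 5 pericyte markers were lower (medians -0.17, 0.04 and -0.47). As CPM are shares of a library, the part of other cells in the levels of the members was not tested.

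The genes whose profile over the 6 libraries was most like the mean profile of the members, measured by the root mean square difference of centred log2(CPM + 1) among 12245 genes with a mean of at least 5 CPM, were Trps1 (0.0107), St18 (0.0259), Atp2b1 (0.0294), Tmem260 (0.0294), Tmem242 (0.0296) and Susd3 (0.0322). The members themselves lay farther from their own mean profile, from 0.0640 for Olfml3 to 0.311 for Sall1. The mean profile spanned only -0.19 to 0.09 on the log2 scale.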

How the data were processed

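Retinal cells sorted for CD90.2 were analysed in 3 AAV2-GFP and 3 AAV2-Ezh2-Y726D libraries prepared with the TruSeq Stranded Total RNA kit. The values deposited are raw counts, whole numbers for each gene that the authors did not normalize. Per the submitters' processing notes, STAR 2.7.0d and GRCm38 were used. The counting tool, the annotation and the strand setting were not given in the sources used here, so counts of overlapping genes are uncertain. Other experiments of the study were not analysed here. Each column was assigned to a sample by its name.

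From the counts, edgeR 4.0.16 (R 4.3.3) was run with TMM factors between 0.647 and 1.31, filterByExpr (10 counts, total of 15), the quasi-likelihood test with group as the only factor, and Benjamini-Hochberg adjustment over 18138 genes. The common biological coefficient of variation was 0.0442. The SE of a log2 fold change was derived from its size and the F statistic (their ratio after taking the root of F), and fitted fold changes weight deeper libraries more than a ratio of mean CPM does. DEGs were defined by a fold change over 1.5 and an adjusted P under 0.05. Symbols were found for 32325 of 32371 identifiers, and 32342 were in GENCODE vM21, which gave coordinates and exonic lengths. Libraries of 1 group differed by more than counting noise (chi-square per degree of freedom of 1.53 to 3.23) and were each counted as 1 replicate, although separate preparations of 1 RNA sample could differ in this way too. The procedure was tested on simulated counts.

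The members and lists were chosen with earlier results of these data known. The rule for named genes took all members, Ezh2, the ligands and transcription factors, the 4 largest called changes and the 2 highest uncalled genes of the microglial and reference lists, at most 2 genes of the other lists, and the 6 genes of most similar profile. Genes that these lists name beyond the rule were chosen after their values were seen, and some items that the rule takes are not reported here. Alternatives were other scalings, DESeq2 1.42.0, other filters, a replicate block, leaving out libraries, a fold change over 2 and reference lists without 1 gene.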

Additional observations from a re-analysis of the deposited data

How the results depend on the processing

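Of 125 alternative values of the members' log2 fold changes, 102 kept their direction and their side of the threshold, 12 lost the call, 2 gained it and 11 changed sign, of which 2 are among those that lost the call (Csf1r and Cx3cr1 with library totals) and 9 were called in neither fit. Csf1r and Cx3cr1 were called lower in every alternative except unscaled library totals. With library totals, which leave the rRNA share in and shift the median of all genes to 0.49, 0 members were lower and 0 higher, at adjusted P and as DEGs, and all genes gave 19 lower and 46 higher DEGs. The values were then 0.36 for Tmem119, 0.11 for Cx3cr1, 0.12 for Csf1r, 0.51 for Siglech, 0.38 for Gpr34, 0.34 for Olfml3, 0.81 for P2ry12, 1.05 for Sall1 and -1.06 for Fcrls. Sall1, P2ry12 and Siglech thus lay above that median and the other members below it, so members not called in the main fit lay on both sides. Library totals without the rRNA gene changed no call of a member.

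With DESeq2, 1 member was higher at adjusted P and 0 as a DEG, with P2ry12 at an adjusted P of 0.114, Siglech was at 0.02 and 291 genes were higher DEGs. Without a filter, Siglech was at 0.00. With at least 10 counts in every library, Fcrls was not tested, so 0 members were lower DEGs, and 268 genes were higher DEGs. With a fold change over 2, 0 members were higher DEGs, and all genes gave 309 lower and 134 higher.

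Leaving out each library in turn gave 2 to 4 members lower and 0 to 2 higher at adjusted P, 0 to 1 lower and 0 to 1 higher as DEGs, and 829 to 988 lower and 378 to 453 higher DEGs among all genes. Log2 fold changes ran from -0.09 to 0.16 for Siglech, with 0.16 without GFP replicate 1 and 0.04 without Ezh2-Y726D replicate 1, and from -0.26 to 0.06 for Gpr34. No member was a higher DEG without GFP replicate 1 or without Ezh2-Y726D replicate 1 or 3. The cause of these changes was not tested. Leaving out GFP replicates 2 and 3 together left 1 GFP library, assumed to vary like the Ezh2-Y726D libraries. The members called then were the same, but this fit rests on GFP replicate 1, without which Fcrls, Sall1 and P2ry12 lost the call, and says nothing of the spread among GFP libraries.

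The same replicate numbers in the labels gave correlations of deviations from the group means of 0.136, 0.051 and 0.0391. Each library correlated best with its own number, a hint from the data and not from the design, but the correlations did not all pass 0.1 and no label ties a number to a batch or animal. With the replicate block, 1 member was higher at adjusted P (P2ry12 at 0.26, adjusted P = 0.0557, and Olfml3 at -0.19, adjusted P = 0.0179, changed side). Precision was limited by few counts for Fcrls, with 6 counts in each of 2 GFP libraries and 8, 7 and 15 counts in the Ezh2-Y726D libraries.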
